A study of Drosophila melanogaster with 37 samples.

Results

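Nested genes, as counted here, lie wholly inside a transcription unit that is read from the opposite DNA strand. In the transcription unit annotation of this Drosophila melanogaster series, 1055 units met this description. Each transcription unit is an interval on 1 strand and can contain a single gene or overlapping genes merged together. Units on the X, 2L, 2R, 3L, 3R and 4 were taken when their start and end both lay within a unit on the other strand, and when they held exactly 1 gene symbol that was not a CR number, an RNA prefix or a microRNA. There were 12000 units with such a name on these 6 arms, called single-gene units below, so that 8.79% of them were nested, and the whole annotation held 15991 units. The surrounding units are called hosts, and there were 689 of them. RefSeq classed 1046 of the 1055 nested genes (99.1%) as protein-coding, near the 11917 of 12000 (99.3%) over all single-gene units.

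The series measured RNA polymerase II (Pol II) by mNET-seq, in which polymerase is captured and the nascent RNA bound to it is sequenced. Its 37 samples came from male and female stage 15 embryos, either depleted of maternal mof by an RNAi transgene under UAS control (MofKD) or carrying a control RNAi. The captured forms were total Pol II (14 samples) and Pol II phosphorylated at serine 5 (15 samples) or serine 2 (8 samples) of its C-terminal domain, in 12 groups of 2 to 4 samples. Each preparation pooled 6000 embryos, and the driver of the RNAi is not given in the labels. Signal per sample was not analysed here, so the values below describe where genes lie and carry no level of transcription, no sequencing depth and no effect of the knockdown. They come from 1 annotation with no replicates, no test was run, and differences are given as values only.

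Genes inside genes were found early in Drosophila, where long introns leave room for complete transcription units on the other strand. A polymerase on the host and a polymerase on the nested gene then move towards each other over the same DNA. In a nascent RNA assay, only the strand of a read tells the nested gene from its host. In this annotation the nested gene is a unit of its own, whereas a gene that overlaps the host on the same strand shares its unit. No unit on these arms overlapped another on its own strand (0 cases), so each nested gene had 1 host, and 0 nested genes were the host of another nested gene.

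Long-known examples met the rule. Pcp, a pupal cuticle protein gene, spanned 789 bp on 2L from 7021682 to 7022470, plus strand, inside ade3, which encodes an enzyme of purine synthesis. ade3 measured 9276 bp, and Pcp lay 1428 bp from its start and 7059 bp from its end. sina, which encodes a ubiquitin ligase needed for the R7 photoreceptor, spanned 4962 bp on 3L from 16853751 to 16858712, plus strand. Its host was the rhodopsin gene Rh4, of 9991 bp. sina filled 49.7% of its host, and Pcp filled 8.51%.

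The dnc locus on the X showed the limit that strand sets. dnc encodes a cyclic AMP phosphodiesterase of learning and memory, and its unit of 167328 bp ran from 3176440 to 3343767 on the plus strand. The salivary gland genes ng2 (546 bp), ng3 (594 bp), ng4 (267 bp) and Pig1 (690 bp) were nested in it on the minus strand, together with CG14265. They lay 63586 bp (ng2), 65051 bp (ng3), 67514 bp (ng4) and 72160 bp (Pig1) from the start of dnc. The glue protein gene Sgs4 and ng1 lie in the same region on the plus strand. The annotation held them in the dnc unit itself, so they were not counted as nested.

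The host with the most nested genes was Flo2, which encodes flotillin 2, a membrane scaffold protein. Its unit held 1 gene and lay on the plus strand of the X, from 14839376 to 14933946, a length of 94571 bp. All 13 nested genes were on the minus strand. In order along the arm they were CG12539, CG9522, CG9521, CG9519, CG9518, CG9514, CG9512, CG9509, CG14406, CG12398, Eo, CG9503 and CG32591. Many of them belong to a cluster of oxidoreductase genes of the glucose-methanol-choline family, and Eo encodes ecdysone oxidase, which acts on the moulting hormone. They measured from 973 bp (CG14406) to 10940 bp (CG9514), with a median of 2265 bp, and together covered 48.7% of Flo2. The run stretched over 86328 bp, from 3241 bp behind the start of Flo2 to 5002 bp before its end. Gaps between neighbours ranged from 164 to 14770 bp, with a median of 1955 bp.

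The kirre unit on the X had 9 nested genes over 394149 bp. kirre encodes an immunoglobulin-type adhesion protein of muscle fusion. The nested genes were CG32795, w, CG14416, CG14417, CG14418, CG14419, CG14424, rst and CG4116. w encodes the transporter of eye pigment precursors, spanned 5868 bp and began its overlap 50215 bp from the start of kirre. rst, which encodes an adhesion protein related to that of kirre, measured 23436 bp and was the longest of the 9. The 9 genes covered 11.0% of the unit, and gaps between them ranged from 31 to 92780 bp, against 164 to 14770 bp in Flo2.

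The unit of CG32816 on the X, of 154151 bp on the minus strand from 316576 to 470726, held 8 nested genes around the achaete-scute complex. ac (917 bp), sc (1438 bp), l(1)sc (1097 bp) and ase (2430 bp) encode basic helix-loop-helix factors that start neural fate. They lay 99779 bp (ac), 73229 bp (sc), 59909 bp (l(1)sc) and 7550 bp (ase) from the start of CG32816. The other nested genes were the cuticle pigment gene y (4737 bp), CG43181, CG43182 and yar (4674 bp), a non-coding RNA gene between y and ac. The CG32816 gene itself spans the whole unit in RefSeq, so each of the 8 lay inside that gene and not only inside a merged interval.

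A further 3 hosts belonged to the 6 with the most nested genes. The unit of Pde1c, a phosphodiesterase gene on 2L, spanned 114417 bp and held 9, namely CG45011, CG45012, Sfp33A4, Sfp33A2, Sfp33A3, CG31704, Mal-B1, Mal-B2 and CG42751. Sfp33A2 to Sfp33A4 encode seminal fluid proteins, and Mal-B1 and Mal-B2 encode maltases. These 9 genes were short, from 244 to 2924 bp, lay within 19840 bp of each other and covered 6.60% of the host. The unit of Usp12-46 and CG7029 on 3R, of 43130 bp, also held 9. These were CG4725, CG4723, CG4721, CG13841, CG43091, CG43092, CG43093, CG43094 and CG43095, in a tight run of 12961 bp with gaps of 107 to 559 bp.

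The remaining host was a unit of 239347 bp on the X that is named first for the non-coding gene CR44357. Its 8 nested genes were CG1958, CG2059, brk, Dok, CG18155, CBP, CG1999 and CheA7a. brk, the repressor of targets of the Dpp signal, measured 3194 bp, and the adaptor gene Dok measured 4593 bp. CG1677 spans 124709 bp of the unit and contained 7 of the 8. CG1958 lay in CR44357 alone. Another unit with 8 nested genes, B4 on 2L, was shorter at 48705 bp and ranked below these 6 by its length.

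**Figure D1:**
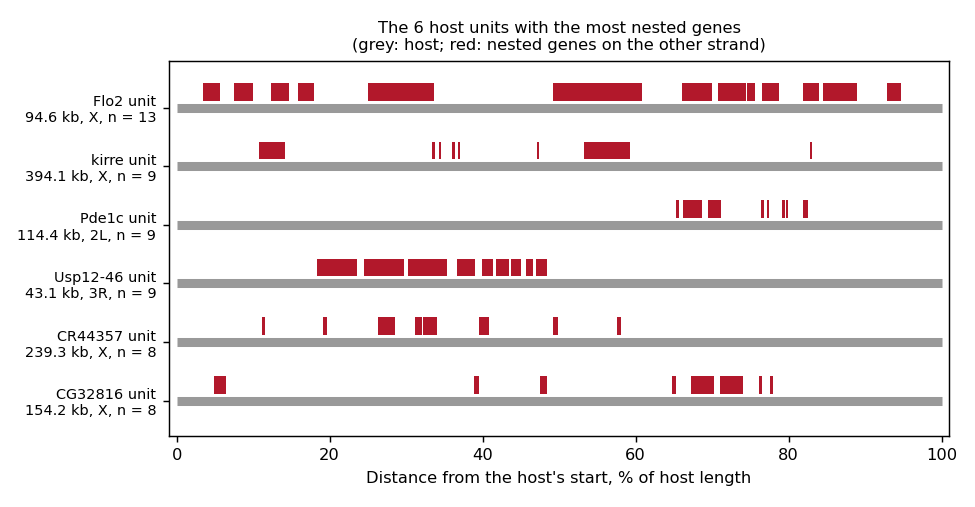
The 6 host units with the most nested genes, with distance from the host's start on the horizontal axis, in percent of host length. Grey bars are hosts and red boxes are nested genes on the other strand, drawn at least 0.35% wide. The 13 genes in Flo2 cover 48.7% of the host, while the 9 in the Usp12-46 unit form 1 run of 12961 bp.

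Most hosts held a single nested gene. There were 503 hosts with 1 (73.0%), 105 with 2, 37 with 3 and 27 with 4, while 17 hosts held 5 or more. The 186 hosts with several nested genes (27.0%) contained 552 of the 1055 nested genes (52.3%). Among these, 366 pairs of nested genes were neighbours in the same host. The median gap within a pair was 1349 bp, and 117 pairs (32.0%) were at most 500 bp apart. Since all nested genes of a host share 1 strand, such pairs stand head to tail. Over all single-gene units, 37.7% had an own-strand neighbour within 500 bp, a share counted per unit and not per pair.

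Hosts were long, which the rule favours, since a long unit has more room. Their median length was 17464 bp (interquartile range 7253 to 43887), and nested genes had a median of 1379 bp (845 to 2242) against 2166 bp (1196 to 4767) for the other 10945 single-gene units. A nested gene must fit in its host, so its shorter length follows in part from the rule. Of all units under 2000 bp on these arms, 29 of 8442 (0.344%) were hosts. The share was 24.3% (171 of 704) for units of 20000 to 50000 bp and 46.3% (143 of 309) for units of at least 50000 bp. Hosts of at least 20000 bp contained 607 nested genes (57.5%).

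**Figure D2:**
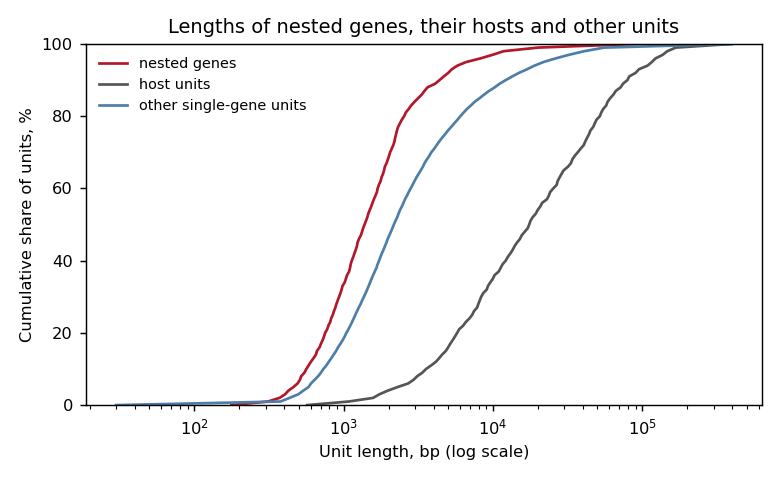
Cumulative share of units against unit length on a log scale, for nested genes, hosts and other single-gene units. Nested genes have a median of 1379 bp, hosts of 17464 bp and the other single-gene units of 2166 bp.

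The 3 longest nested genes lay on the X, and the first of them encode transcription factors. br, a zinc finger gene of the ecdysone response, spanned 89738 bp from 1575132 to 1664869 and filled 61.6% of the unit of Mur2B. bi, a T-box gene of wing and optic lobe patterning, spanned 72792 bp from 4412856 to 4485647 and lay in a unit named first for CR32773, which is non-coding. CG43902 was next at 36904 bp. The shortest were Tango8 at 177 bp inside sbb, CG34211 at 198 bp inside the non-coding CR44130 of 569 bp, and CG42649 at 219 bp inside Smurf, all on 2R. Nested genes took a median of 5.87% of the host (interquartile range 2.15 to 18.6), and 49 of 1055 (4.64%) filled more than 50% of it.

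Nested genes carried few transcript isoforms. A single transcript was annotated for 750 of 1055 nested genes (71.1%), against 49.4% of the other single-gene units, and all 12000 together gave 51.3%. Short genes have fewer isoforms in general, so the shares were also taken within length classes. Under 1000 bp, 86.8% of 355 nested genes and 78.8% of 2029 others had 1 transcript. From 1000 to 2000 bp the shares were 74.9% of 367 nested genes and 64.2% of 3078 others, and from 2000 to 5000 bp they were 58.9% of 248 and 43.5% of 3219. At 5000 bp and above they were 24.7% of 85 nested genes and 16.3% of 2619 others. The nested share was the higher in each of the 4 classes. Lengths were not matched within a class, and the last class has no upper limit.

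Some nested genes had many isoforms. Mf, the gene of the muscle protein myofilin, had 17 transcripts and lay on 3R in Gyc88E, a guanylyl cyclase gene of 40868 bp. br had 14 and the serpin gene Spn42Da had 11. These 3 stood at the top of a distribution with a median of 1.

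Genes without a given name were frequent. A CG number was the only symbol of 708 nested genes (67.1%), of 47.5% of the other single-gene units, and of 49.3% of all single-gene units. Within length classes the nested share was again the higher each time, from 75.2% against 62.2% under 1000 bp to 47.1% against 31.3% at 5000 bp and above. Here too, lengths were not matched within a class. A CG symbol says only that no other name was given in this annotation.

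Neighbours on the nested gene's own strand were farther away. The median gap to the nearest own-strand unit was 1988 bp for nested genes and 890 bp for the other single-gene units. Such a neighbour lay within 500 bp for 279 nested genes (26.4%), against 37.7% over all single-gene units. Head-to-head starts, with the start of an opposite-strand unit 0 to 500 bp upstream, numbered 11 (1.04%), against 27.1% over all single-gene units. For starts of units this difference is fixed in advance, because units on 1 strand do not overlap and no other unit can start inside the host. Starts of genes merged into a host were not counted, so facing gene starts inside merged hosts are missed. In the CR32773 unit on the minus strand, for example, rb starts at 4540626 and the nested CHOp24 at 4540908. This pair was picked with its values known. The 11 lay at most 302 bp from the end of the host, among them dUTPase, DENR and gfzf, a choice made with their values known.

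The place of a nested gene between the ends of its host was summarised by the host length left free. The median nested gene had 43.7% of the free length on the side of the host's start (interquartile range 23.1 to 68.2, n = 1053). The lower side, under 50%, held 595 genes (56.5%). With the free length cut into 10 equal classes, the first 6 held 112 to 128 genes each, the next 3 held 90 to 97, and the last, next to the host's end, held 59 (5.60%). In base pairs, the median distance was 7999 bp to the host's start and 11580 bp to its end. The start of the nested gene itself, which faces the end of the host, stood at a median of 53.9% of the host length.

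**Figure D3:**
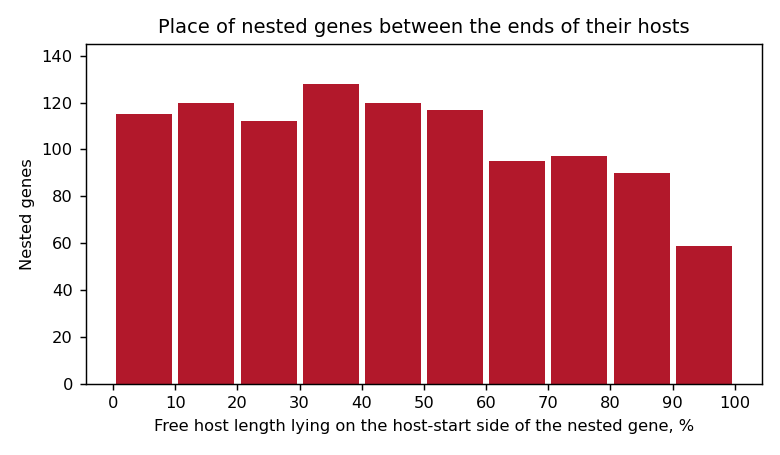
Number of nested genes by the percent of free host length that lies between the host's start and the nested gene, in 10 equal classes over 1053 genes. The class next to the host's end holds 59 genes and the others hold 90 to 128.

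Few nested genes lay close to an end of the host. At least 100 bp separated 1012 of 1055 nested genes (95.9%) from both ends of the host, and 868 (82.3%) had at least 1000 bp. Ucp4B and CG43190 had exactly the coordinates of a non-coding unit on the other strand, CR43465 and CR44304, and 4 more shared 1 end with the host. Lfg, CG14610 and dUTPase were among these 4. Just outside the rule, CG11077 on chromosome 4 passed the end of CR44031 by 2 bp, and CG31347 and CG8534 on 3R passed Arp1 and CR44035 by 10 bp each. In all, 28 single-gene units missed the rule by 100 bp or less.

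The X had the largest share of nested genes among the 6 arms. The X was set beside the autosome arms because in flies males raise the transcription of their single X, the process of dosage compensation. On the X 219 of 1870 single-gene units were nested (11.7%), against 835 of 10052 (8.31%) on 2L, 2R, 3L and 3R pooled. The single arms had 9.46% on 2R, 9.11% on 3L, 8.03% on 2L and 6.94% on 3R. The X held 20.8% of the nested genes and 15.6% of the single-gene units. Nested genes per host were 1.80 on the X and 1.34 to 1.61 on the autosome arms, and 32.8% of hosts on the X held several, against 25.8% on the autosome arms pooled.

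The X also had more of its length in units than the 4 large autosome arms. Units filled 40.6% of the X, averaged over both strands, and 33.7% to 37.9% of the 4 autosome arms, and units of at least 20000 bp filled 24.6% of the X against 17.5% to 21.3%. The part of this in the difference between arms was not tested. 3R came next after the X in both measures among the 5 large arms and had the lowest nested share of them. With hosts of 1 gene only, the X was again first, with 5.78% against 5.51% on 2R and 4.71% on the autosome arms pooled.

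**Figure D4:**
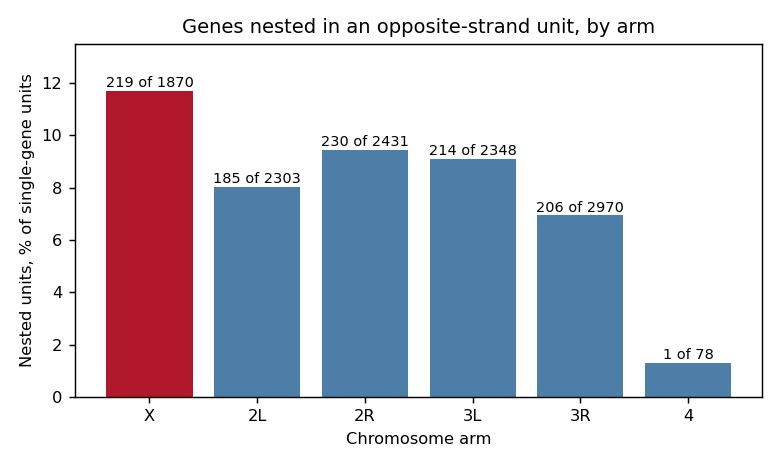
Nested genes in percent of single-gene units for each chromosome arm, with the counts above the bars. The X stands at 11.7%, the 4 autosome arms at 6.94% to 9.46% and chromosome 4 at 1.28%, which is 1 gene.

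Chromosome 4 held 1 nested gene among 78 single-gene units. This was sphinx, on the plus strand from 975168 to 977261, inside fuss, a unit of 16149 bp. RefSeq classes sphinx as a long non-coding RNA. Units filled 43.7% of chromosome 4, the highest value of the 6 arms, and units of at least 20000 bp filled 17.1%, the lowest.

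Gene families differed in how many of their members were nested. Lists were made by symbol among single-gene units, so genes merged with others were left out. Family members with only a CG number were missed as well. Such symbols made up 67.1% of nested genes and 47.5% of the other single-gene units, so each family share holds for the listed symbols only. Each count stands against the 8.79% of all single-gene units. That share fell with length, from 14.9% under 1000 bp to 10.7%, 7.15% and 3.14% in the longer classes used above. Families were not matched for length, and the overall share is below that of units under 2000 bp. Chemoreceptors were the first group. Odorant receptor genes were nested in 10 of 55 cases (18.2%), gustatory receptor genes in 7 of 54 (13.0%) and ionotropic receptor genes in 6 of 59 (10.2%). The odorant-binding proteins, which carry odours to the receptors, had 4 of 46 (8.70%).

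Among odorant receptors, Or45a (3515 bp) lay in a merged unit of 80172 bp on 2R and Or45b (1471 bp) in the non-coding CR45281 of 5936 bp. Or59b (1611 bp) and Or59c (1454 bp) shared the CG43795 unit on 2R. Each of the 10 odorant receptor genes had 1 transcript. The first gustatory receptors along the arms had hosts of other kinds: Gr9a lay in CG15312, Gr39a in Mondo, which encodes a transcription factor of sugar sensing, Gr47a in the SLO2 unit and Gr68a in CG6024. No 2 nested gustatory or ionotropic receptors shared a host. Ir48c lay in the unit of ths, an FGF ligand gene, Ir51b in row, Ir56a in the serotonin receptor gene 5-HT1A, and Ir60a in nord. The binding protein genes were Obp47b, Obp51a, Obp59a and Obp69a, of 465 to 1092 bp.

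Genes of reproduction and of the salivary gland formed the next group. The seminal fluid and testis list had 16 of 67 nested (23.9%), with a median of 497 bp. Sfp24Ba (575 bp), Sfp24Bd (444 bp), Sfp24Bb (515 bp) and Sfp24Bc (451 bp) lay in a row inside Drgx, a homeobox gene of 29370 bp on 2L. Glue and salivary secretion genes had 4 of 20, which are those of dnc described above. Cuticle proteins, which build the exoskeleton, had 9 of 121 (7.44%), close to the level of all units. They included Cpr11B in hwt and TwdlX (1540 bp), TwdlY (1034 bp) and TwdlZ (691 bp), which lay together in goe on the X.

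Of the cytochrome P450 genes, which encode enzymes of detoxification and hormone metabolism, 16 of 79 were nested (20.3%), with a median of 2095 bp. Cyp4d2 lay in the non-coding CR44690 and Cyp308a1 in the unit of a cholecystokinin-like receptor gene, CCKLR-17D1, both on the X. Cyp4ac1 (1899 bp), Cyp4ac2 (2064 bp) and Cyp4ac3 (1832 bp) stood in a row in tkv, a Dpp receptor gene of 52385 bp on 2L, the nearest of them 1055 bp from its start. The serine protease list, made by symbol, had 2 of 37 (5.41%), which were SPH93 and Ser8. It leaves out any protease with only a CG number.

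Patterning genes, which set up the body axes and the nervous system, had 8 of 49 nested (16.3%). Of these, 4 were the achaete-scute genes of CG32816. The names of the others were picked with their values known. brk was described above, and the gap gene Kr (4784 bp) lay in CG9380 on 2R. The BMP ligand gene scw (1590 bp) lay in Lar on 2L, and rho (5134 bp), which encodes a protease of EGF signalling, lay in Ptp61F on 3L. Lar and Ptp61F both encode tyrosine phosphatases and belong to units of 145447 and 132765 bp.

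The lists of basic cell machinery had nested shares of 0 to 5.97%. None of 70 mitochondrial ribosomal protein genes and none of 15 tubulin and actin genes were. Cytoplasmic ribosomal proteins had 2 of 59 (3.39%), RpL41 (520 bp) and RpS10a (604 bp). The respiratory chain had 4 of 67 (5.97%), UQCR-14, COX5BL, ND-B14.5AL and ND-49L, of which the last 3 carry the suffix L in their symbols. The proteasome had 1 of 43 (2.33%), Prosalpha4T1, a testis form of an alpha subunit. The list of Pol II pausing and general transcription factors had 1 of 48 (2.08%), Taf12L (651 bp), and heat shock proteins had 1 of 17, Hsp60D. The subunits of the MSL complex, which carries dosage compensation to the X, were added later and had 0 of 5.

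**Figure D5:**
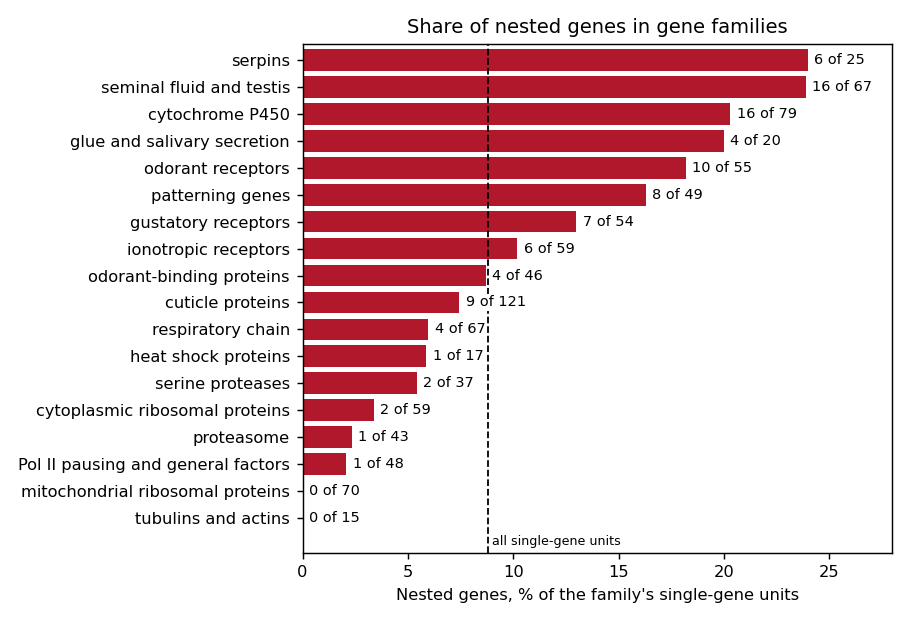
Nested genes in percent of the single-gene units of each family, for families with at least 15 such units, with counts beside the bars. Families are lists made by symbol, without members that have only a CG number. The dashed line marks the 8.79% of all single-gene units. Serpins, seminal fluid and testis genes and cytochrome P450 genes stand at 20.3% to 24.0%, and ribosomal, proteasome and Pol II factor lists at 3.39% or less.

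A further 3 families were added with earlier results known. Of the 5 insulin-like peptide genes with a unit of their own, 4 were nested. Ilp3 (823 bp) and Ilp4 (865 bp) lay in the unit of CG32052 on 3L, which also held Ilp1 and Ilp2 on its own strand, Ilp5 (549 bp) lay in CG43897, and Ilp6 (3166 bp) lay in the unit of the kinase gene Raf on the X. Chorion proteins of the eggshell had 5 of 10, all in 1 host. Cp7Fa, Cp7Fb, Cp7Fc, Cp36 and Cp38 lay in the unit of CG33223 on the X, of 18196 bp, where chorion genes are known to be amplified in follicle cells. Serpins, inhibitors of proteases, had 6 of 25 (24.0%). Spn27A (2283 bp) lay in the unit of CG34310 and cup on 2L and Spn42Da in the non-coding CR44169, while Spn43Ab, Spn43Ad and nec shared the unit of the planar polarity gene pk on 2R.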

How the data were processed

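The submitters' processing notes name build dm6 and the tools STAR 2.7.4a, SAMtools 1.20, cutadapt 2.8, DESeq2 and DESeq, without roles or settings. The authors deposited 1 annotation of transcription units. Per the file headers it is a GFF version 2 file from rtracklayer 1.48.0. It gives 1-based start, end and strand, gene symbols and transcript identifiers. How genes were merged into units is not stated. Containment was computed from these coordinates. The search recovered all nested pairs in 20 of 20 simulated annotations of 300 units. Gene classes and the extents of single genes inside merged hosts came from a RefSeq table of the same assembly, which matched 1052 of 1055 nested genes by symbol or synonym, and 1040 of these had the same start and end. It has no exons, so exons and introns were not told apart.

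The members, the 17 gene families fixed in the design, the 4 families added later and the genes named were chosen with earlier results of these data known. Named genes were those of the 6 hosts with the most nested genes, the 3 longest, the 3 shortest, the 3 with most transcripts, those at the edge of the rule, those on chromosome 4, long-known cases and the first 4 members of each family. CG14265, Cyp4ac3, Cp38, nec, B4 and genes beyond the 3 nearest a host end were named outside this rule, with their values known. No test was run across units, and neighbouring units are not independent. Alternatives numbered 8 planned and 2 added. Python 3.11.15, numpy 2.4.6, pandas 2.3.3, scipy 1.17.1 and matplotlib 3.10.9 were used.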

Additional observations from a re-analysis of the deposited data

How the results depend on the processing

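Of 58 alternative values, 44 stayed within the 95% binomial interval of the reported value, or within 1.5 times it for counts, and 14 moved. These intervals treat units as independent. With only hosts of 1 gene symbol there were 582 nested genes, 4.85% of single-gene units. Their hosts had a median of 10914 bp, 17.2% of hosts held several, and the nested start stood at a median of 56.8% of the host. With at least 1000 bp to both host ends the nested share was 7.23%, the median host 25860.5 bp and the share of hosts with several 32.1%. With units of at least 1000 bp only, 700 genes were nested (7.28%), their median was 1930.5 bp and 22.9% of hosts held several. Head-to-head starts of units were found for 0.474% within 250 bp and 2.09% within 1000 bp. The smaller numbers of nested genes and the head-to-head shares follow from how these alternatives are built. The lower nested shares with hosts of 1 gene symbol and with 1000 bp to both ends also follow, since the single-gene units stay the same. So does the longer nested median once units under 1000 bp are left out. The longer median host with 1000 bp to both ends follows in part, since short hosts cannot leave that room. The cause of the other moves was not tested. The X had the largest nested share of the 5 large arms under each of the 8 alternatives that change which genes count. The alternatives with hosts that contain a protein-coding gene, and with nested genes spanned by 1 gene, were chosen after seeing the data. The planned share of promoters with a TATA motif was not run, because promoter sequences were not analysed here. No paired analysis was possible because no value of any sample was analysed. Depth limits nothing here, since the annotation carries none.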

Other observations

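Merged hosts raise the question of whether a single gene surrounds the nested gene. Of the 473 nested genes in hosts of several genes, 469 (99.2%) lay within at least 1 gene of the host by RefSeq's coordinates. The 4 without such a gene were CG13377, ppk8, CG9914 and P5CDh2. Units with no protein-coding gene made up 37 of the 689 hosts (5.37%) and 2835 of the 15848 units on these arms (17.9%). For 66 nested genes (6.26%), every gene that spanned them was non-coding. Of these, 26 lay on the X, which is 11.9% of its nested genes, against 2.80% on 3L, 4.86% on 2L, 5.34% on 3R and 6.09% on 2R. Of the 26, CR32773 spanned bi and 6 other genes, and CR44999, in the unit of Myc, spanned 6 genes, Gas8 and CG12206 among them. On the autosome arms they included CR33294 around the neuropeptide gene Dsk on 3R and CR43257 around ETH, the gene of ecdysis triggering hormone, on 2R. No test was run on these counts, and the genes of this paragraph were named after their values were seen.

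Not all nested units were protein-coding. Besides yar and sphinx, RefSeq classed Or98P and alpha-Est4aPsi as pseudogenes, CG43885 as an antisense RNA and RNaseMRP:RNA as the RNA of RNase MRP, and 3 symbols had no match. A further 713 nested units were outside the rule by name, of which 676 held 1 non-coding symbol and 37 held several symbols, so that 1768 of 15848 units on these arms (11.2%) were nested in all.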
